A study of Mus musculus with 4 samples.

Results

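The genes described here belong to protease inhibitor families and were taken from the array by symbol: serpins, Kazal and Kunitz inhibitors, cystatins, whey acidic protein (WAP) inhibitors, Timps and Reck, alpha-macroglobulins and inter-alpha-trypsin inhibitor heavy chains. The symbol pattern took 68 of 12422 probe sets, which stand for 53 of the 8251 genes that the platform annotation names singly. It also took 4 Cstf genes, which belong to the cleavage stimulation factor of messenger RNA processing and inhibit no protease, so 49 genes belong to inhibitor families. Some of these 49, among them Serpinh1, Serpinf1 and Serpina6, share the serpin fold without a known role as protease inhibitors. Serping1 was kept out by the rule, and 4 further probe sets that read several Serpina1 or Serpinb9 paralogs at once were not members. The arrays were Affymetrix Mu74AV2 GeneChips, each with RNA from the seminal vesicle of 1 of 4 C57Bl/6J mice, Nkx3.1 +/+ in genotype and 15 months old. All mice form this 1 group, so the questions open to the data are which of these genes gave signal and which differed between mice. Each probe set has 1 log2 expression value per array. The labels do not say whether the mice shared a litter or a hybridisation day, and the number of arrays limits the precision.

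The seminal vesicle is an androgen-dependent gland that secretes much of the seminal fluid. Proteases and their inhibitors act on that fluid when it clots into the copulatory plug and when the plug dissolves. Serpins trap serine proteases by a suicide mechanism in which the cleaved loop folds into the serpin body. Kazal, Kunitz and WAP inhibitors instead block the active site as a tight, reversible plug. Cystatins act on cysteine cathepsins, and Timps act on matrix metalloproteases.

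The secretory genes of the gland read high on every array, as the tissue label calls for: Svs2 had 12.45, 12.67, 12.54 and 12.48 in mice 1 to 4, and 6 of 7 measured genes of the secretion list lay above the background range. That range was taken from 109 genes typical of other organs, such as retina, pancreas and pituitary. Its upper limit, the 90th percentile of their 130 probe sets, stood at 6.23 in mouse 1, 6.12 in mice 2 and 3 and 6.21 in mouse 4. A gene counted as above it when any of its probe sets exceeded the limit on all 4 arrays. Arrays stood apart in some genes outside the members. The prostate secretory gene Pbsn was highest in mouse 1, at 6.57 against 3.02, 3.18 and 3.47 in the others (adjusted p = 0.0015, limma). By its brightest probe set the immunoglobulin gene Ighm was lowest in mouse 4, at 6.57 against 8.51, 9.14 and 8.67 in the others (adjusted p = 0.00733, limma). Of the 16 Ighm probe sets, 2 had an adjusted p under 0.05 (limma). Without mouse 1 the counts of member genes above this range and of member probe sets that differed between mice were 9 and 0, and without mouse 4 they were 10 and 0. Of all genes, 28.8% were above the range without mouse 1 and 28.4% without mouse 4. With all 4 mice 0.282% of all probe sets differed between mice, and that share was not counted with a mouse left out. The beta-actin control probe sets of the 3' end read higher than those of the 5' end by 0.817 in mouse 2 and up to 1.08 in mouse 1. For the Gapdh controls the same difference was of opposite sign, from -0.15 in mouse 3 to -0.116 in mouse 1.

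Of the 53 member genes, 9 were above the background range, or 17.0%, beside 27.9% of all genes, and by probe sets 9 of 68 were, beside 22.8%. The 9 genes were Timp1, Timp2, Timp3, Cst3, Cstb, Slpi, Serpina3n, Serpinb6a and Serpinh1. They came from the Timp, cystatin, WAP and serpin families. The Kazal, Kunitz, inter-alpha-trypsin and macroglobulin families had 0 genes above the range, as did the 4 Cstf genes, so without Cstf the share was 18.4%. A value under the limit does not show that a gene was silent. In whole tissue, fewer cells of a type and less RNA per cell cannot be told apart.

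**Figure D1:**
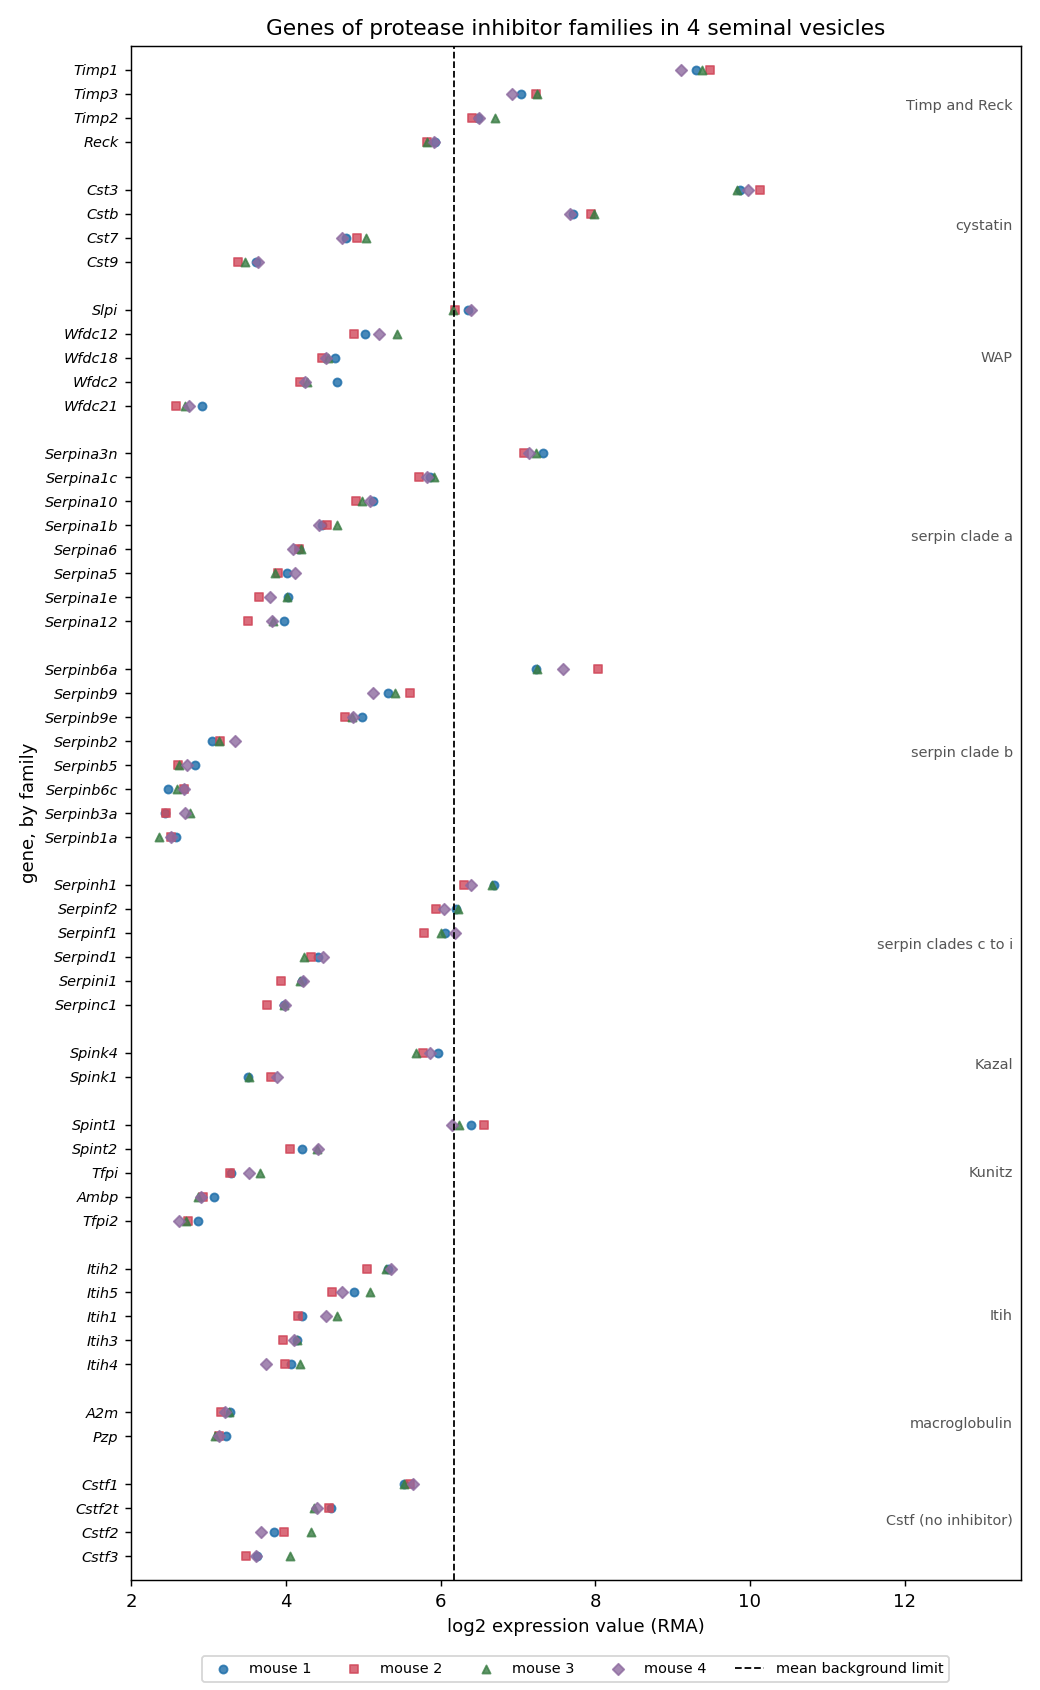
Log2 expression values (horizontal axis) of the 53 member genes (vertical axis, by family), each by its probe set of highest mean, with 1 marker per mouse and a dashed line at the mean background limit of 6.17. Genes with all markers right of the line are mainly Timps, cystatins and single serpins; the limit itself differs slightly between arrays.

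The metalloprotease inhibitors had the highest share of genes above the range, with all 3 Timp genes above the range and Reck under it. Timp1, which encodes the secreted inhibitor of most matrix metalloproteases and is also a growth factor for some cells, had 9.30, 9.48, 9.38 and 9.11 in mice 1 to 4 (9.32 ± 0.16, SD, n = 4). Every mouse thus lay at least 2.89 log2 units above its array's limit. Timp3, whose protein binds the extracellular matrix and inhibits several Adam and Adamts proteases as well, had 7.04, 7.24, 7.25 and 6.92 (7.11 ± 0.16, SD, n = 4). Timp2, which inhibits Mmp2 and also takes part in its activation by Mmp14, had 6.49, 6.41, 6.70 and 6.50 (6.52 ± 0.13, SD, n = 4). It cleared the limit by 0.26 at the least, and missed a limit set at the 95th percentile. Reck, a membrane-anchored inhibitor of metalloproteases, had 5.93, 5.82, 5.83 and 5.91 (SD 0.05, n = 4) and lay under the limit in every mouse.

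The cystatin family was split, with 2 of 4 genes above the range. Cst3, which encodes the secreted cystatin C, had 9.87, 10.13, 9.84 and 9.98 (9.96 ± 0.13, SD, n = 4). Cstb, the cytosolic stefin B, had 7.71, 7.95, 7.98 and 7.68 (7.83 ± 0.15, SD, n = 4). Mice 2 and 3 were the higher pair for Cstb, whereas mouse 3 was lowest for Cst3. Cst7, the leukocyte cystatin F, averaged 4.86 and Cst9 3.53, and neither reached the limit on any array.

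Of the 5 WAP genes only Slpi, the secretory leukocyte protease inhibitor that blocks neutrophil elastase and cathepsin G, was above the range, and only just. Its values were 6.36, 6.19, 6.16 and 6.40 (6.28 ± 0.12, SD, n = 4), with mouse 3 clearing its limit by 0.04. The other 3 Slpi probe sets averaged 5.34, 5.03 and 5.0 and were under the limit in every mouse. Wfdc12, Wfdc18, Wfdc2 and Wfdc21 averaged 5.14, 4.54, 4.34 and 2.73 and were all under it. In the mouse genome Slpi and Wfdc12 close off a run of 10 neighbouring protein-coding genes on chromosome 2 that holds the seminal vesicle secretory genes Svs2, Svs4, Svs5 and Svs6. On the array 6 genes of this run were read and 5 were above the range, Wfdc12 being the exception. Svs5, which lies next to Slpi, had 13.08, 13.18, 13.09 and 13.02. Beyond Slpi, a run of 9 genes leads to Wfdc2, and 3 of its 8 measured genes, Slpi included, were above.

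Serpins were the largest group, with 22 genes in 27 probe sets, and 3 of them were above the range. In clade a, whose members are mostly secreted by the liver into plasma, 1 of 8 genes was. This was Serpina3n, an inhibitor of granzyme B and leukocyte elastase that rises in acute-phase responses, at 7.33, 7.08, 7.24 and 7.15 (7.20 ± 0.11, SD, n = 4). It ends a chromosome 12 run of 23 genes of which 8 were measured, and the other 7 were under the limit: Serpina10, Serpina6, Serpina1b, Serpina1c, Serpina1e, Serpina12 and Serpina5. Their means ran from 3.78 to 5.83. Serpina5, the protein C inhibitor found in reproductive glands of many mammals, had 4.02, 3.90, 3.86 and 4.12. Serpina6, the corticosteroid-binding globulin, averaged 4.15. The 4 probe sets that read several paralogs averaged 3.71 to 4.45, so the mixed Serpina1 and Serpinb9 signals were under the limit too. The liver list, with albumin and other plasma protein genes, had 0 of 13 genes above the range. Some of these genes, such as Alb, F9 and Fgb, are also among the other-organ genes that set the limit. The count is therefore not independent of the limit.

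Clade b serpins are mostly intracellular, and 1 of 8 genes was above the range. Serpinb6a, which protects cells from their own lysosomal and granule proteases such as cathepsin G, had 7.24, 8.04, 7.25 and 7.58 (7.53 ± 0.38, SD, n = 4). Mouse 2 was highest, mouse 4 intermediate, and mice 1 and 3 were nearly equal. Its neighbours Serpinb6c, Serpinb9 and Serpinb9e averaged 2.61, 5.37 and 4.87, the second of these being the granzyme B inhibitor of cytotoxic lymphocytes. Serpinb1a, Serpinb2, Serpinb3a and Serpinb5 averaged 2.50, 3.17, 2.59 and 2.69. Serpinb5, maspin, is a marker of basal and myoepithelial cells, and the basal list had 1 of 7 genes above the range.

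In the remaining clades 1 of 6 genes was above the range. Serpinh1 does not inhibit proteases: it is Hsp47, the endoplasmic reticulum chaperone of procollagen. It had 6.69, 6.31, 6.67 and 6.39 (6.52 ± 0.20, SD, n = 4), with mice 1 and 3 higher than mice 2 and 4. The neighbours Serpinf2 and Serpinf1 came close to the limit, each by its brighter probe set, whose name carries a letter ending. By this set Serpinf2, the plasmin inhibitor alpha-2-antiplasmin, had 6.20, 5.94, 6.23 and 6.05 and passed in mouse 3 alone. Serpinf1, the anti-angiogenic and non-inhibitory pigment epithelium-derived factor, averaged 6.01 by its brighter set. The plain probe sets were dimmer, averaging 5.41 for Serpinf2 and 5.27 for Serpinf1. Antithrombin (Serpinc1, 3.92), heparin cofactor II (Serpind1, 4.36) and neuroserpin (Serpini1, 4.14) were under it in every mouse.

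Kunitz and Kazal genes stayed under the limit on at least 1 array. Spint1, which encodes the membrane inhibitor of matriptase and prostasin in epithelia, came closest, at 6.39, 6.56, 6.24 and 6.15 (6.34 ± 0.18, SD, n = 4). It passed in mice 1 to 3 and missed by 0.06 in mouse 4. Spint2, its relative, averaged 4.27, Tfpi, the inhibitor of the tissue factor pathway, 3.44, Tfpi2 2.73 and Ambp, the precursor of bikunin, 2.94. Spink4 averaged 5.82. Spink1, which the RefSeq table also lists as Spink3 and p12 and which is known as a trypsin inhibitor of pancreas and male accessory glands, had 3.51, 3.81, 3.53 and 3.89. The 5 Itih genes, whose products join bikunin and hyaluronan, averaged 4.0 to 5.26. The broad protease traps A2m and Pzp averaged 3.23 and 3.15.

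The call of being above the range rested on 1 probe set for every gene. Of 12 member genes with more than 1 probe set, Timp1, Timp2, Cst3 and Slpi were above, each through a single one. The second Timp1 probe set averaged 2.48, the second Cst3 probe set 4.83, and the further Timp2 probe sets 3.51 and 3.33. All 9 probe sets above the range were among the 52 with the plain name ending. The other 16 carry a letter that Affymetrix gave to sets with shared or less regular probes, and 0 of them were above. The same counts were not made over all probe sets, so this is not shown to be particular to the members. Outside the members, sets with a letter ending were above for some genes, such as Ctse (8.30) and Krt17 (6.32).

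The proteases that these inhibitors meet were counted in the same way. Of cysteine and aspartic proteases 6 of 18 genes were above the range, or 33.3%, among them the lysosomal cathepsins Ctsb (8.46, 8.63, 8.35 and 8.51) and Ctsd (9.11, 9.32, 9.03 and 9.26) and Ctse (8.40, 8.39, 8.06 and 8.35). Cystatins inhibit the first of these, while the latter pair are aspartic proteases outside their reach. The values of Ctse come from the brightest of its 3 probe sets, whose name carries a letter ending. Of serine proteases 7 of 53 were above, or 13.2%. These included the coagulation factor gene F7 (7.60 ± 0.05, SD, n = 4), by 1 of its 2 probe sets, Prss8, prostasin, a target of Spint1 (7.51 ± 0.11), and the proprotein convertase Furin (7.12 ± 0.11). The leukocyte targets named above for Slpi and Serpina3n were under the limit: Elane averaged 5.70, Ctsg 2.47 and Gzmb 4.79. The neutrophil list had 0 of 13 genes above. Not all leukocyte serine proteases were under it: the mast cell tryptase Tpsb2, chosen after its values were seen, was above at a mean of 7.90. Plasmin and its activators were also under it, with Plg at 3.25, Plau at 4.23 and Plat at 5.09. Of metalloproteases 1 of 25 was above, or 4.0%. This gene was Mmp14, the membrane-type activator of Mmp2, at 6.90, 6.61, 6.77 and 6.79. Mmp2 averaged 3.82 and Mmp9 5.01. Of the receptors that clear or sense such complexes 2 of 10 were above, Lrp1, which takes up protease and serpin complexes (6.59 ± 0.18), and the thrombin receptor F2r (6.63 ± 0.14). No test was made between these lists.

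The second question was which member genes differed between the 4 mice. A probe set was called when its variance over the arrays exceeded limma's prior variance at an adjusted p under 0.05 over all 12422 probe sets. Of the 68 member probe sets 0 were called by limma, where 0.282% of all probe sets were, and 4 had an unadjusted p under 0.05, or 5.88%, beside 5.44% of all. The median SD of the members was 0.131 and that of all probe sets 0.112. A range over 0.5 log2 units was seen in 6 member probe sets, or 8.82%, and in 8.54% of all probe sets. The 9 member probe sets above the range had a median SD of 0.154, beside 0.111 for all probe sets above it. With 4 mice, a probe set that was not called is not shown to be alike in them. With a single array per mouse, differences between animals cannot be told apart from those of sample handling or hybridisation.

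**Figure D2:**
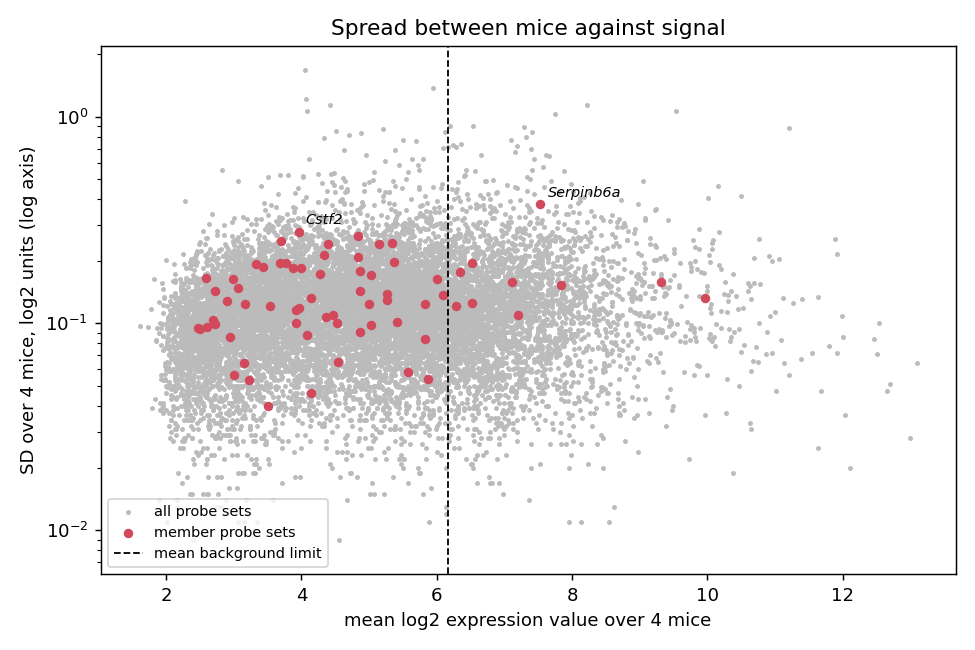
SD over the 4 mice (vertical log axis, log2 units) against mean log2 value (horizontal axis) for all probe sets in grey and the 68 member probe sets in red, with the mean background limit dashed. Serpinb6a, at an SD of 0.38, is the member with the widest spread, and the members lie within the grey cloud.

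Serpinb6a, with the widest spread among the members, was not called (SD 0.38, adjusted p = 0.473, limma). Without mouse 2 its SD was 0.196, and no alternative brought its adjusted p under 0.382 (limma, range over alternatives 0.382 to 0.983). The other 3 probe sets with an unadjusted p under 0.05 all lay under the background limit, where values are least certain. They read Cstf2 (3.85, 3.98, 4.33 and 3.68), Cstf3 (3.63, 3.48, 4.06 and 3.62) and, through its dimmer probe set, Cst3 (4.57, 4.73, 4.82 and 5.20). Mouse 3 was highest for both Cstf genes. The dim Cst3 set was highest in mouse 4, whereas the bright one was highest in mouse 2. Slpi showed a like disagreement, since a dimmer probe set had 5.06, 5.23, 5.63 and 5.44 with mouse 3 highest, while the brightest set had mouse 3 lowest. The remaining genes above the range had SDs from 0.11 for Serpina3n to 0.20 for Serpinh1 (adjusted p = 0.993 for each of these 2, limma).

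Cathepsin L, a lysosomal cysteine protease and cystatin target, stood out in the protease lists in the same mouse. Ctsl, chosen after its values were seen, had 7.80, 8.75, 8.03 and 8.12 (SD 0.41, adjusted p = 0.386, limma). Like Serpinb6a it was highest in mouse 2 and lowest in mouse 1, and like it was not called. Ctsb had its highest value in mouse 2 as well, with an SD of 0.11, and so had Cst3 and Timp1. Whether these genes vary together cannot be judged from 4 mice.

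**Figure D3:**
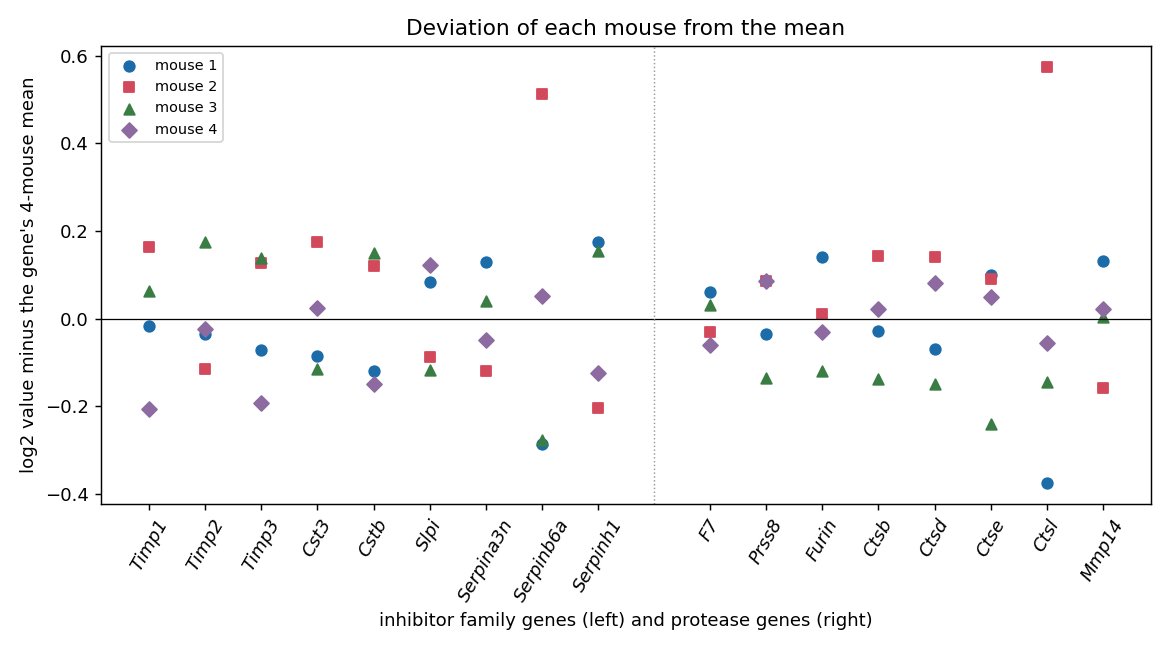
Log2 value minus the gene's own 4-mouse mean (vertical axis) for the 9 member genes above the background range (left) and 8 protease genes (right), with 1 marker per mouse. Serpinb6a and Ctsl have mouse 2 farthest from 0, while the other genes keep within a narrower band with no common order of the mice.

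A further measure used the 10 genes with a mean over 6.17, the average of the 4 limits, which are the 9 above the range and Spint1. Averaged over these genes, the departure from a gene's own mean was -0.02, 0.08, 0.01 and -0.07 in mice 1 to 4. For the 2554 genes of the array with such signal it was -0.01, 0.02, 0.00 and -0.02. With the median over the 10 genes in place of the mean, the values were -0.03, 0.12, 0.05 and -0.09. The range of the members' mean deviation over the mice, 0.151, was 0.084 without mouse 2 and 0.096 without mouse 4. Members disagreed on the order: of these 10 genes 4 were highest in mouse 2 and 3 were lowest there. The 2554 genes with such signal were split as well, with 30.5% highest in mouse 2 and 30.3% lowest there.

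Marker lists of cell types and neighbouring organs were set beside the members, as the mean deviation of their genes with signal in mice 1 to 4. B and plasma cell genes had the widest range, at -0.09, 0.64, 0.35 and -0.90, with 3 of 8 genes above the range and 4 of 27 probe sets called by limma. The red cell list deviated by -0.24, 0.39, -0.42 and 0.27, which rests on its 1 gene of 5 above the range, Hba-a1. Smooth muscle genes deviated by 0.35, -0.18, -0.04 and -0.13, with 10 of 11 above. Macrophage and dendritic cell genes deviated by -0.09, 0.10, 0.26 and -0.27, with 7 of 16 above. Fibroblast and matrix genes deviated by 0.16, -0.05, -0.13 and 0.03, with 8 of 17 above, and luminal epithelial genes by -0.03, 0.11, -0.09 and 0.00, with 8 of 14 above. Basal epithelial genes (0.02, -0.03, -0.01 and 0.01) and the secretion list (-0.02, 0.10, -0.04 and -0.04) had narrower ranges than the members. So had the prostate list by its 3 of 8 genes above, at 0.05, -0.07, 0.07 and -0.05, a measure that leaves out Pbsn because its mean lay under the limit. The mean log2 level over all genes of a list ran over the mice from 5.80 to 6.51 for B and plasma cells, from 8.51 to 9.01 for smooth muscle, from 5.96 to 6.31 for macrophages and from 6.44 to 6.60 for luminal epithelium. Among basal markers Krt5 and Krt14 averaged under the limit at 4.80 and 4.42. The 1 of 7 basal genes above the range was Krt17 (6.32), by a probe set with a letter ending. The fibroblast gene Pdgfra (5.91) was under the limit, while Dcn (8.82), Col6a1 (7.71) and Col1a1 (6.93) were among the 8 of 17 above the range. The neutrophil genes S100a8 (3.48) and S100a9 (3.24) averaged under the limit. The part of cell makeup in the inhibitors' values was not tested.

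Promoter sequences were matched by symbol to a RefSeq table of build GRCm38.p6, which held 45 of the 53 member genes and 8 of the 9 above the range. Windows ran from 250 bases before to 50 after the annotated start. Of the genes above the range, those shown differ most in the letters found: Cst3 and Serpina3n hold the hexamer of androgen response elements, Serpinb6a holds only GC boxes, and Slpi holds neither. The GC boxes of Serpinb6a all lie in the window of its more upstream start, and its other window held no match. The 250 bases before the start are printed 5′ to 3′ on the gene's strand, with capitals for the androgen hexamer AGAACA, for the GC box GGGCGG or for the TATA box TATAAA on either strand. Cst3 is at chr2:148875513-148875762 on the minus strand, Serpina3n at chr12:104406458-104406707 on the plus strand, Serpinb6a at chr13:34002795-34003044 on the minus strand by its more upstream start, and Slpi at chr2:164356508-164356757 on the minus strand.
Cst3: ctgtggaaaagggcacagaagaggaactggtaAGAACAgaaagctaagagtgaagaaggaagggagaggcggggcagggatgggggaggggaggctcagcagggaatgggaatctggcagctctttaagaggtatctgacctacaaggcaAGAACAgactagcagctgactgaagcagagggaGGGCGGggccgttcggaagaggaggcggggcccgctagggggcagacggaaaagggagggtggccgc
Serpina3n: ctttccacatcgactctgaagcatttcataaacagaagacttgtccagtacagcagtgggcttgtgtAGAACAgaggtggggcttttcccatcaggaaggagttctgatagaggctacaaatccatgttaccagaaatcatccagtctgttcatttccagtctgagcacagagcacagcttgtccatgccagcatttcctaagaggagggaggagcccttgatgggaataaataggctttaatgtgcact
Serpinb6a: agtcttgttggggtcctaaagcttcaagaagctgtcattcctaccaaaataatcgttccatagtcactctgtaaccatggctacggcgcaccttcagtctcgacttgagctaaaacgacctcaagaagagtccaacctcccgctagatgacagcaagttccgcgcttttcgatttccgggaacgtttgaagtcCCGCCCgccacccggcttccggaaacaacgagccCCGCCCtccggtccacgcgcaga
Slpi: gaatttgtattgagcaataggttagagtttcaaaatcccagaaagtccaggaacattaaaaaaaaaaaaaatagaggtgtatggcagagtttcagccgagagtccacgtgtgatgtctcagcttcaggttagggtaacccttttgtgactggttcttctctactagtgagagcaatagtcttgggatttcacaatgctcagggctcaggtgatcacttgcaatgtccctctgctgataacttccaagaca
In the bases printed, Cst3 has AGAACA beginning 218 and 100 bases before the start and GGGCGG 67 bases before it, and Serpina3n has AGAACA 183 bases before its start. For Serpinb6a the GC box lies on the opposite strand, beginning 57 and 23 bases before the start. The counted windows hold 1 more GC box each for Cst3 and Serpinb6a, 25 and 13 bases after the start. The 8 matched genes above the range have 9 windows, since a gene can have several starts. GGGCGG was found in 6 of these 9, beside 17 of 42 windows of the other members and 35.7% of all 32851 promoters. AGAACA was found in 2 of 9, beside 10 of 42 and 19.0% of all. TATAAA was found in 0 of 9, beside 8 of 42 and 13.6% of all. These are matches of letters, and no binding was measured.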

How the data were processed

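The deposited table holds log2 expression values per probe set from 4 arrays, which the submitters' processing notes say the authors made with RMA. This method corrects background, brings arrays to a common distribution and fits the probes of a set robustly. Its version is not given in the sources used here, and the log2 scale was read from the values. RMA compresses differences of dim probe sets.

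The 66 control probe sets were left out of tests. Gene names came from the platform annotation. All 68 member probe sets matched a RefSeq table (GRCm38.p6) by gene ID, which gave names and neighbours. A gene was shown by its probe set of highest mean. Levels were set against the background limit, which other probe sets define. Levels of 2 probe sets also differ by their probes, so none was tested against another. Mice were numbered in series order, which only names them.

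The variance test used limma 3.58.1 in R 4.3.3 (prior fitted robustly with mean signal as trend, 8.06 prior and 3 residual degrees of freedom, upper-tail F test, Benjamini-Hochberg over 12422 probe sets at 0.05). P-values compare the spread of a probe set over these 4 arrays with the prior fitted to all probe sets. They do not separate differences between mice from differences between arrays.

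Members, lists and tests were chosen with earlier results of these data known. Named were all members above the range, those with an unadjusted p under 0.05, the 5 of largest SD, the nearest 3 probe sets below the limit among genes not above it, and up to 3 genes above the range per protease list in list order; other genes are given as family values, as background or as chosen after their values were seen. Alternatives were other array scalings, prior fits, filters, background limits, probe set summaries and leaving out each mouse.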

Additional observations from a re-analysis of the deposited data

How the results depend on the processing

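No paired analysis was possible because the 4 arrays form 1 group. Of the member probe sets 0 were called by limma in the main setting and in each of its 10 alternatives. In the main setting 0.282% of all probe sets were called, and this share was not counted in the alternatives. Members with an unadjusted p under 0.05 numbered 1 to 4. The count of 1 came from the filters on mean signal, which kept only 25 and 10 of the 68 member probe sets. All 151 alternative values of single named probe sets stayed uncalled. The count of genes above the range rested on the limit: it was 17 with the 75th percentile (51.6% of all genes) and 18 with each array's median (55.4%), which brought in Reck, Spint1, Serpinf1 and Serpinf2 among others. It was 6 with the 95th percentile (22.0%), which Timp2, Serpinh1 and Slpi did not pass. It was also 6 with the mean of a gene's probe sets (21.5%), which Timp1, Timp2 and Slpi did not pass. Leaving out a mouse gave 9 to 10 genes, beside 28.1% to 28.8% of all genes. The range of the members' mean deviation was 0.084 to 0.151 with a mouse left out. Dim probe sets limit what can be said of the 44 genes under the limit.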

Other observations

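Of the 43 member genes whose mean was not above the mean limit, 24 were lowest in mouse 2, or 55.8%, beside 38.3% of the 5697 such genes on the array. Only 2 were highest there, or 4.65%, beside 19.3%. Among the 10 brighter members 3 were lowest in mouse 2, or 30.0%, beside 30.3% of all genes with such signal. The array of mouse 2 also had the widest distribution, with an SD over probe sets of 1.782 against 1.745 to 1.756 on the others and a first quartile of 3.57 against 3.62. Other dim lists were lowest in mouse 2 too: the mean level of the liver list was 4.15 there and 4.24 to 4.33 in the other mice, that of the neutrophil list 4.08 against 4.19 to 4.30, that of the metalloproteases 4.10 against 4.16 to 4.24, and that of the other-organ list 4.35 against 4.43 to 4.47. The liver and other-organ lists share genes such as Alb and F9. Dim and bright members were not tested against each other, and the part of the wider distribution in these counts was not tested.

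By Dixon's gap criterion at the 95% level, 1 mouse lay apart from the other 3 for 3 of 68 member probe sets, or 4.41%, and for 5.09% of all probe sets. None of the 16 probe sets named by the rule was among them.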
